A study of Homo sapiens with 6 samples.

Results

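The mevalonate pathway is the route by which a cell turns acetyl-CoA into isoprenoid units and joins them into longer chains. Its trunk ends at farnesyl diphosphate, which is then used either for squalene, the precursor of cholesterol, or for geranylgeranyl diphosphate, dolichol, ubiquinone and the lipid tails of small GTPases. The transcription factor SREBP-2 is known to act on most genes of the trunk when sterols in the endoplasmic reticulum are low, together with NF-Y, a factor that binds CCAAT boxes. Described here are 9 enzymes of this route, ACAT2, HMGCS1, MVK, PMVK, MVD, IDI1, FDPS, GGPS1 and FDFT1, out of 23062 identifiers listed in each library. They were taken by gene symbol and place in the pathway. The pathway itself was chosen by the difference between TAX-treated and control libraries in the same data, in which genes of cholesterol synthesis were lower, so that difference is given for the 9 enzymes as a description and not as a test.

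The libraries came from DU145, an established human prostate cancer cell line that was derived from a brain metastasis and is labelled wild type. Control cultures (n = 3) were kept in MEM medium for 48 h, and TAX cultures (n = 3) received taraxasterol, a pentacyclic triterpene of dandelion, for the same 48 h at a dose labelled IC50, which is 56 µM for this line. Whether the controls received a solvent is not stated. The study says in general that experiments were repeated, but not whether these replicates were separate cultures, and the spread between them may be technical in part.

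Values are in FPKM, fragments scaled to the length of the gene and to the size of the library, which can therefore be compared between genes. Summed FPKM was 322483 to 363724 per library, and the number of reads is unknown. Changes are differences of log2(FPKM + 1), TAX minus control, which understate the change of weakly expressed genes. Library values are given in the order of replicates 1, 2 and 3. The limma comparison covered the 12359 genes that reached 1 FPKM in 3 or more of the 6 libraries, and all 9 enzymes were among them. Control replicate 3 stood apart from the other libraries, since it held the lowest value of its group for 72.3% of tested genes, and its median log2(FPKM + 1) was 3.28 against 3.44 to 3.46 in the other libraries. The median change of all tested genes was 0.054, and 39 genes were higher and 20 lower at an adjusted p under 0.05 (limma, Benjamini-Hochberg). When each library was centred on its own median, these counts were 46 and 50. The epithelial markers KRT8, KRT18, KRT19, EPCAM and CDH1 lay between 40.7 and 173 FPKM in every library, and their summed level was 428 to 545 FPKM in control and 555 to 606 FPKM in TAX libraries. The leukocyte, endothelial and fibroblast lists had 2 of 11 genes above the filter, and PTPRC, CD3E, PECAM1, VWF and DCN were at or near 0. The 2 genes were CD68, a lysosomal protein, whose list summed to 20.02 to 26.7 FPKM in control and 32.5 to 33.4 FPKM in TAX libraries, and COL1A1, whose list summed to 1.91 to 2.09 and 1.44 to 1.51 FPKM. The part of these differences in the results for the enzymes was not tested.

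Of the 9 enzymes, 8 had a lower mean log2 level in TAX-treated cells than in control cells, and PMVK had a higher one. The median change of the 9 was -0.25 on the log2 scale, and 30.9% of all tested genes had a change below 0. The extent differed along the route, from 35.6% less FPKM for MVK and 20.3% to 21.7% less for IDI1 and HMGCS1 down to 7.31% less for GGPS1. In MVK, HMGCS1 and IDI1 all 3 TAX libraries lay below all 3 control libraries, which was the case for 3.34% of tested genes. PMVK had all TAX libraries above all control libraries, as did 14.6% of tested genes. The other 5 enzymes overlapped between groups. From bulk RNA, fewer cells that express a gene and less of its RNA per cell cannot be told apart.

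**Figure D1:**
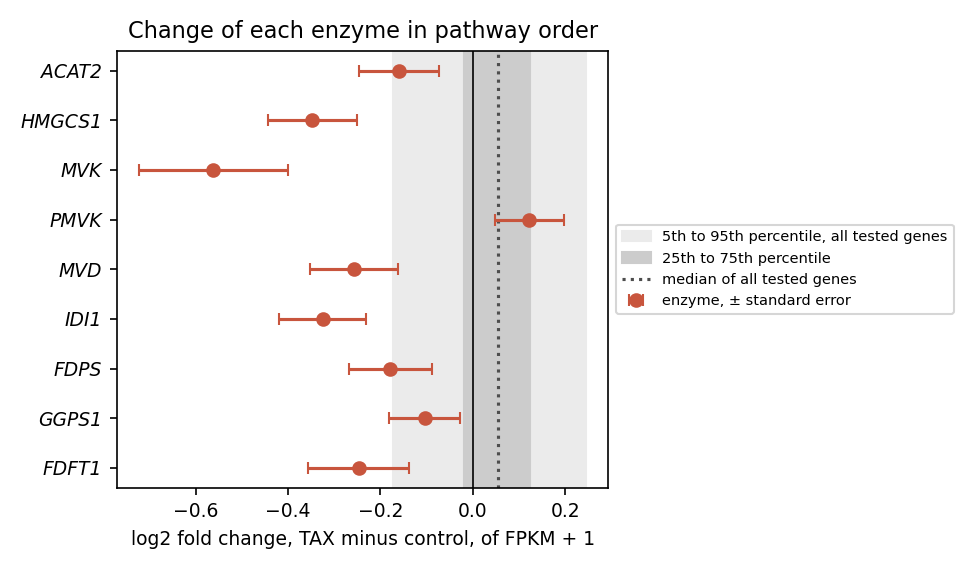
Difference of log2(FPKM + 1) between TAX and control libraries (horizontal axis) for each enzyme in pathway order, as points with the standard error of limma (3 libraries per group). The bands span the 25th to 75th and the 5th to 95th percentile of the 12359 tested genes. PMVK is the only enzyme to the right of 0, and MVK lies farthest to the left at -0.56.

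The scale between libraries mattered for the count of enzymes whose groups were apart. When each library was centred on the median of its tested genes, 8 of the 9 enzymes had all TAX libraries below all control libraries, beside 9.53% of tested genes treated in the same way, and PMVK no longer had its groups apart. The change of PMVK was then 0.065 instead of 0.12. Quantile normalization also gave 8 enzymes with TAX lower throughout, beside 8.16% of tested genes, and scaling to a fixed sum gave 7, beside 6.81%. Without control replicate 1, 2 or 3 the count was 4, 3 and 7 enzymes, beside 4.25%, 5.17% and 13.4% of tested genes. Without TAX replicate 1, 2 or 3 it was 4, 7 and 3 enzymes, beside 5.24%, 6.61% and 4.54%. Of the 14 alternatives 10 could alter the change of an enzyme, and in these 8 enzymes stayed below 0 and PMVK above 0.

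The first enzyme, ACAT2, is the cytosolic thiolase that joins acetyl-CoA units into acetoacetyl-CoA. Its gene lies on chromosome 6 from 159760328 to 159779055 on the plus strand (GENCODE 29, GRCh38). The control values were 78.5, 72.0 and 70.7 FPKM, and with TAX they were 65.1, 71.0 and 61.8 FPKM. The TAX libraries reached into the control range only with replicate 2, which exceeded the lowest control by 0.312 FPKM. The means were 73.7 ± 4.14 and 65.9 ± 4.71 FPKM (SD, n = 3 each), and the change was -0.16 on the log2 scale (standard error 0.087). The gene model of ACAT2 shares 2202 bases with SOD2 and 558 bases with TCP1, both on the other strand, and whether the reads were counted by strand is not given in the sources used here.

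HMGCS1, the cytosolic synthase that makes HMG-CoA, the compound from which mevalonate is formed, lies on chromosome 5 from 43289395 to 43313512 on the minus strand. It measured 62.6, 70.0 and 59.6 FPKM without TAX, compared with 45.7, 54.7 and 50.2 FPKM in treated cells. Every TAX value was below every control value, with a gap of 4.97 FPKM between the groups. Measured in FPKM, this gap was the widest among the 3 enzymes whose groups were apart in this way. The means were 64.1 ± 5.36 and 50.2 ± 4.48 FPKM (SD, n = 3 each), a change of -0.35 (standard error 0.095). In the RefSeq promoter window around the start at position 43313412 (GRCh38.p14), which runs from 250 bases before to 50 bases after the start, a search for CCAAT on both strands found 2 boxes. Another window of HMGCS1, around the start at position 43313181, held 0. The boxes are printed on the strand that reads CCAAT, here the plus strand, with the box in capitals and 8 bases on each side. CCAAT was printed because it is the box of NF-Y and recurred in the windows of several of the enzymes. The letters GGGCGG were in more of the windows, as given below.
HMGCS1, chr5:43313555-43313575: ggcttctaCCAATcaaaagga
HMGCS1, chr5:43313500-43313520: tcccacagCCAATcgcggccg

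The next enzymes carry out phosphorylation and decarboxylation. MVK is mevalonate kinase, which adds the first phosphate, and lies on chromosome 12 from 109573255 to 109598117 on the plus strand. Its level was 14.5, 9.99 and 9.20 FPKM in control cells against 6.26, 8.87 and 6.53 FPKM after TAX. The groups did not overlap, but control replicate 3 and TAX replicate 2 were only 0.323 FPKM apart, and control replicate 1 was far above the rest. The means were 11.2 ± 2.84 and 7.22 ± 1.44 FPKM (SD, n = 3 each), which is the largest change among the 9 enzymes at -0.56 (standard error 0.16). Without control replicate 1 the change of MVK was -0.38, and over all 14 alternatives it ranged from -0.70 to -0.38. Over the libraries of a group MVK was also the most variable enzyme, with a coefficient of variation of 25.3% in control and 19.9% in TAX cells. MVK and MMAB, a gene of cobalamin metabolism, lie back to back on opposite strands and share 620 bases of their gene models. MMAB had 12.1, 10.1 and 11.4 FPKM in control cells and, after TAX, 10.6, 11.6 and 9.36 FPKM, so its groups overlapped. The promoter window of MVK held 5 CCAAT boxes, the most in a single window of the 7 enzymes with a window, of which 4 read on the minus strand and the one that ends at position 109573712 on the plus strand.
MVK, chr12:109573576-109573596: actgcgaaCCAATaaaaattg
MVK, chr12:109573629-109573649: ccgttaaaCCAATgggaaaca
MVK, chr12:109573692-109573712: cctattgaCCAATgttcaagc
MVK, chr12:109573707-109573727: tacctttaCCAATaggcttga
MVK, chr12:109573740-109573760: caggccagCCAATcagagcgc

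PMVK, phosphomevalonate kinase, adds the next phosphate, and its gene is on chromosome 1 from 154924734 to 154936991 on the minus strand. PMVK was listed at 15.9, 16.6 and 15.8 FPKM in control cells, and the TAX libraries had 17.4, 18.4 and 17.0 FPKM. All TAX values lay above all control values, in the opposite direction to the enzymes before and after it in the route. Its means were 16.1 ± 0.414 and 17.6 ± 0.730 FPKM (SD, n = 3 each), and the change was 0.12 (standard error 0.075), or 0.068 above the median of all tested genes. A ratio within a library does not depend on how the libraries were scaled. The ratio of MVK to PMVK was 0.909, 0.604 and 0.583 without TAX, compared with 0.360, 0.482 and 0.384 after treatment. The summed FPKM of the 8 other enzymes was 32.1 to 35.2 times that of PMVK in control and 24.9 to 27.4 times in TAX cells. Both ratios set enzymes chosen for lower levels against the one that was higher, and no more is read from them. The promoter window of PMVK had no CCAAT box on either strand.

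MVD, the decarboxylase that yields isopentenyl diphosphate, is encoded on chromosome 16 from 88651935 to 88663161 on the minus strand. Control cells had 27.5, 27.3 and 23.7 FPKM of MVD, and treated cells had 19.7, 23.9 and 21.6 FPKM. Only TAX replicate 2 and control replicate 3 crossed, by 0.134 FPKM. The means were 26.2 ± 2.11 and 21.7 ± 2.08 FPKM (SD, n = 3 each), and the change was -0.26 (standard error 0.095). The window of MVD held 3 CCAAT boxes, the first and second below on the plus strand of the genome and the last on the minus strand.
MVD, chr16:88663238-88663258: cctctcagCCAATggacggga
MVD, chr16:88663199-88663219: cgcgccgaCCAATcagcggcg
MVD, chr16:88663164-88663184: cgcacgggCCAATcctgtggt

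IDI1, the isomerase that turns isopentenyl diphosphate into dimethylallyl diphosphate, is found on chromosome 10 from 1039152 to 1049170 on the minus strand. The control libraries were nearly alike at 44.1, 45.0 and 44.9 FPKM, and the TAX libraries spread over 31.7, 40.4 and 34.7 FPKM. All TAX libraries were lower, and the nearest pair was 3.73 FPKM apart. The means were 44.7 ± 0.463 and 35.6 ± 4.41 FPKM (SD, n = 3 each), a change of -0.33 (standard error 0.095). The coefficient of variation of IDI1 was 1.04% in control and 12.4% in TAX cells, the lowest of the 9 enzymes among controls and the second highest among TAX libraries. RefSeq gives 3 windows for IDI1, which held 0, 3 and 2 CCAAT boxes, and in the second of them a pair of boxes shares letters as a palindrome. The antisense gene IDI2-AS1 covers 5050 bases of IDI1.

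FDPS makes farnesyl diphosphate, the branch point of the route, and is the target of bisphosphonate drugs. It lies on chromosome 1 from 155308748 to 155320666 on the plus strand and had the highest level of the 9 enzymes. It reached 195, 188 and 181 FPKM in control cells, while TAX cultures showed 159, 181 and 158 FPKM. TAX replicate 2 passed the lowest control by 0.464 FPKM, and both other TAX libraries were well below all controls. The means were 188 ± 7.28 and 166 ± 12.98 FPKM (SD, n = 3 each), and the change was -0.18 (standard error 0.089). GENCODE 29 lists 8 pseudogenes of FDPS, none of which has a row in the deposited tables, so reads from near-identical copies may be part of its value. The window of FDPS held 3 CCAAT boxes, of which the middle one reads on the plus strand and the others on the minus strand.
FDPS, chr1:155308682-155308702: acggacgaCCAATggaagggc
FDPS, chr1:155308736-155308756: gccagcagCCAATcagcgcgg
FDPS, chr1:155308807-155308827: tacaactcCCAATgtgcccgc

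At the branch, GGPS1 extends farnesyl diphosphate to geranylgeranyl diphosphate, which is attached to small GTPases. Its gene lies on chromosome 1 from 235327350 to 235344532 on the plus strand. The control libraries had 20.6, 22.2 and 22.0 FPKM and the TAX libraries 20.8, 20.2 and 19.0 FPKM. TAX replicate 1 was above control replicate 1, so the groups overlapped. With means of 21.6 ± 0.861 and 20.01 ± 0.905 FPKM (SD, n = 3 each), GGPS1 had the smallest change of the 8 lower enzymes at -0.10 (standard error 0.077). Over the 14 alternatives the change of GGPS1 ranged from -0.18, after quantile normalization, to -0.071, without TAX replicate 3. Without control replicate 1 it was -0.14, and ACAT2 then had a smaller change at -0.11. The gene model of TBCE covers 15963 bases of GGPS1 on the same strand, and TBCE had 3.35 to 3.89 FPKM in control and 2.22 to 3.03 FPKM in TAX libraries, so reads could have been given to either gene. Of 3 promoter windows of GGPS1, only the second held a CCAAT box, and it held 1.

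FDFT1 is squalene synthase, which joins farnesyl diphosphate units and commits them to sterols. Its gene is on chromosome 8 from 11795573 to 11839309 on the plus strand. Control cells held 117, 117 and 96.2 FPKM of FDFT1, and after TAX the values were 83.9, 104 and 89.5 FPKM. Control replicate 3 lay within the TAX range, and the groups overlapped by 7.80 FPKM, more than for any other enzyme. The means were 110 ± 11.9 and 92.5 ± 10.4 FPKM (SD, n = 3 each), and the change was -0.25 (standard error 0.11). Without control replicate 3 the change of FDFT1 was -0.34, and without TAX replicate 1 it was -0.18, the ends of its range over the 14 alternatives. The ratio of FDFT1 to GGPS1, the enzymes of the sterol and the geranylgeranyl branch, was 5.69, 5.25 and 4.38 without TAX, and after treatment it was 4.03, 5.16 and 4.70. The ratio of FDPS to GGPS1 was 9.47, 8.45 and 8.23 without TAX and, after treatment, 7.64, 8.98 and 8.30. Both ratios overlapped between the groups.

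**Figure D2:**
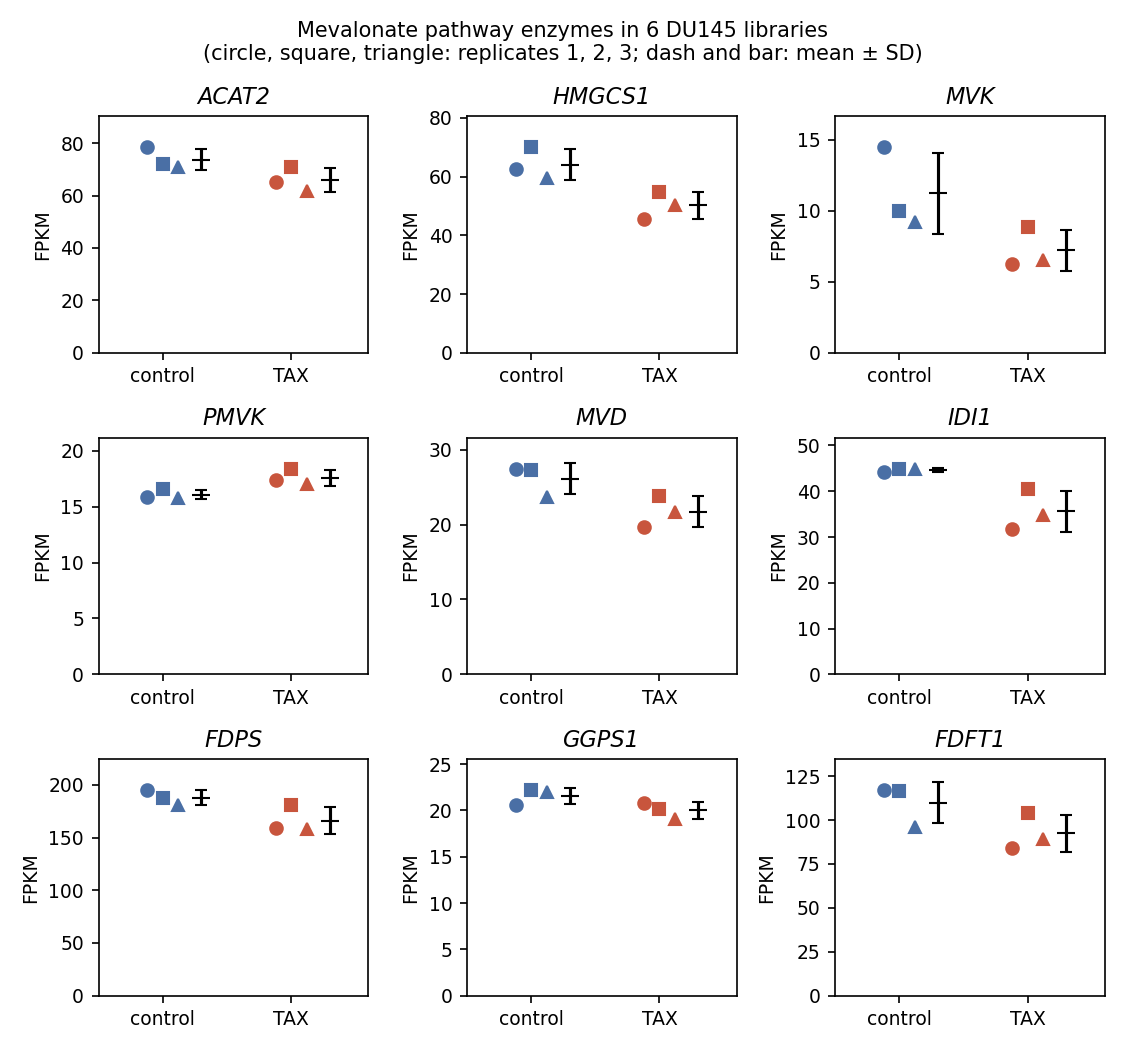
FPKM of each enzyme (vertical axis, from 0) in the 3 control and 3 TAX libraries, with the mean and SD of each group beside the points and the replicate given by the symbol. TAX replicate 2 (square) is the highest TAX library in 8 of the 9 panels. In MVK, HMGCS1 and IDI1 all TAX points lie below the control points, and in PMVK they lie above.

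The levels of the 9 enzymes, which did not enter the choice of the pathway, spanned a factor of 19.2 between FDPS and MVK, as means over the 6 libraries. In order of mean FPKM they were FDPS at 177, FDFT1 at 101, ACAT2 at 69.8, HMGCS1 at 57.1, IDI1 at 40.1, MVD at 23.9, GGPS1 at 20.8, PMVK at 16.8 and MVK at 9.22. Among all tested genes FDPS stood at percentile 98.2, FDFT1 at 96.0 and MVK at 48.3, so 8 of the 9 were above the median gene at 9.75 FPKM. Neighbours in this order were apart over the full range of the 6 libraries except for ACAT2 and HMGCS1 and for MVD and GGPS1. ACAT2 was nevertheless higher than HMGCS1 within each of the 6 libraries, while MVD was higher than GGPS1 in 5 of 6, the exception being TAX replicate 1. The order was the same in the control libraries alone. The kinases MVK and PMVK and the decarboxylase MVD were thus among the 4 lowest levels, and the enzymes on both sides of them in the route were among the higher ones, apart from GGPS1.

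Within a group, the enzymes were compared after subtraction of the group mean, which takes out the difference between treatments. Pearson's r of log2(FPKM + 1) between enzymes was above 0 in 29 of 36 pairs, with a median of 0.69 and a range from -0.49 to 0.98. Over all pairs of tested genes r was above 0 in 68.8%, with a median of 0.32. With each library centred on its median, an alternative chosen after the data were seen, it was above 0 in 33 of the 36 pairs of enzymes, with a median of 0.63, and in 50.9% of all pairs, with a median of 0.017. These r describe 6 points that share libraries and their scaling. The highest was between MVD and FDFT1 (r = 0.98), and the next was between ACAT2 and FDPS (r = 0.93). GGPS1 had negative r with 7 of the 8 other enzymes, PMVK being the exception (r = 0.42), and its median r with the others was -0.11, against 0.62 to 0.81 for the other enzymes. After centring, GGPS1 had negative r with only 3 of the others and a median r of 0.19, beside 0.54 to 0.73 for the other enzymes. TAX replicate 2 was the highest TAX library for 8 of the 9 enzymes, all but GGPS1, and for 41.5% of tested genes. In the control group replicate 3 was the lowest for 7 of the 9 enzymes and, as given above, for most tested genes.

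**Figure D3:**
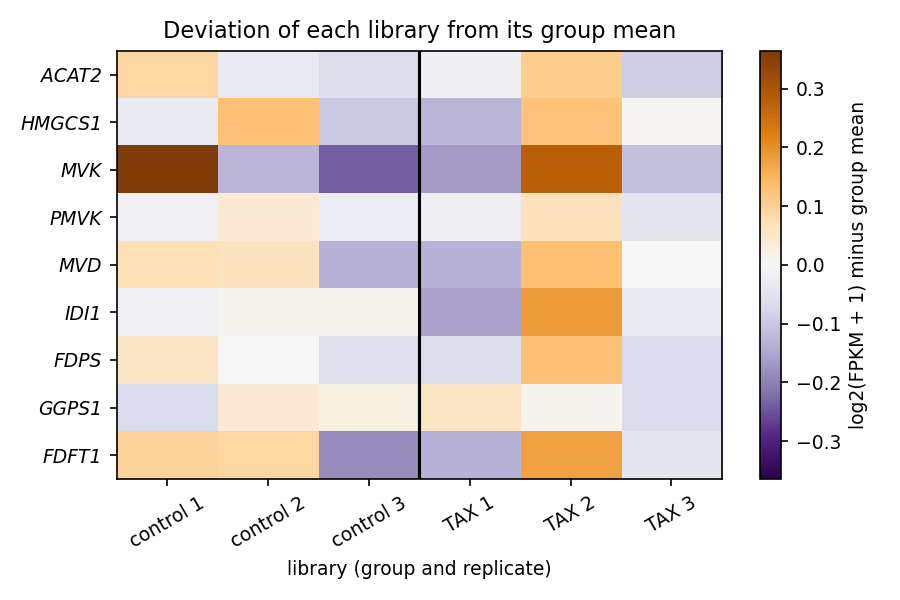
Deviation of log2(FPKM + 1) from the group mean for each enzyme (rows) in each library (columns), orange above and purple below the mean. TAX replicate 2 is above its group mean in all 9 rows, and control replicate 3 is below it in 7.

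The genes whose profile over the 6 libraries was most like the mean of the standardised enzymes were sought among 11573 tested genes with a symbol. KCNK1, a potassium channel subunit, had the highest Pearson's r (r = 0.99 over 6 libraries), followed by MMP15, a membrane-bound metalloproteinase (r = 0.98), CCDC134 (r = 0.97), RECK, an inhibitor of metalloproteinases (r = 0.97), and SCD5, a stearoyl-CoA desaturase (r = 0.96). KCNK1 had 9.86, 10.2 and 8.71 FPKM in control cells, against 7.48, 8.73 and 7.19 FPKM after TAX. An r above 0.9 was found for 67 genes. This profile includes the difference between TAX and control by which the pathway was chosen, so the likeness is a description of these 6 libraries.

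Promoter windows were matched in RefSeq (GRCh38.p14) for 7 of the 9 enzymes, with 12 windows of the length given above, some of which overlap. They were searched on both strands for CCAAT, the box of NF-Y. At least 1 box was found in 7 of the 12 windows, compared with 34.6% of the 35116 windows in the table. At least 2 boxes were found in 6 of the 12, compared with 10.8%, and at least 3 in 4 of them, compared with 3.26%. Counted by gene, HMGCS1, MVK, MVD, IDI1 and FDPS had a window with 2 or more boxes, GGPS1 had 1 box and PMVK had 0. A share by gene over all promoters is not given. Of the 19 boxes, 5 were followed by CA, as in the printed boxes of MVK at chr12:109573740-109573760, MVD at chr16:88663199-88663219 and FDPS at chr1:155308736-155308756, a share of 26.3% compared with 16.8% of boxes in all windows. The letters TCACNCCAC, a form of the sterol regulatory element, were in none of the 12 windows and in 1.13% of all windows. GGGCGG, the GC box of Sp1, was in 11 of the 12 windows and in 45.0% of all. At least 2 of these were in 7 of the 12 and in 26.7% of all, and at least 3 in 2 of the 12 and in 15.8% of all. CACGTG, an E-box, was in none of the 12 and in 7.26% of all. A match of letters is a description of the sequence and does not show that a factor binds.

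Other genes of the pathway were followed as lists written down by function. Of 12 enzymes that lead from squalene to cholesterol, which belong to the same choice by measured values as the 9 enzymes, 11 were lower in TAX-treated cells, with a median change of -0.22 beside 0.054 for all tested genes. These values are given as a description with no test, for the same reason. In that list MSMO1, the sterol methyl oxidase, measured 53.5 ± 4.92 FPKM without TAX against 36.4 ± 1.19 FPKM after it (SD, n = 3 each). TM7SF2, a sterol reductase, had 21.5 ± 2.47 and 16.4 ± 1.32 FPKM, and SQLE, squalene epoxidase, had 56.4 ± 4.39 and 45.6 ± 2.56 FPKM (SD, n = 3 each). In the whole list 6 of the 12 genes, these 3 among them, had TAX values below all control values, beside 3.34% of tested genes.

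Among 12 tested genes of SREBP control and sterol uptake, which overlap with that choice and are also given with no test, 7 were lower and 5 higher, with a median change of -0.023. INSIG1, the anchor that holds SREBP in the endoplasmic reticulum, had 31.3 ± 4.14 and 21.4 ± 1.94 FPKM, and STARD4, a sterol carrier, had 14.8 ± 2.47 and 11.8 ± 1.09 FPKM (SD, n = 3 each). The split of this list moved with the setting in both directions. It was 10 lower and 2 higher without control replicate 3, with a median of -0.11, and likewise 10 and 2 after quantile normalization, with a median of -0.083. Centred on the library medians it was 8 lower and 4 higher, with a median of -0.081, and without control replicate 2 it was 4 lower and 8 higher, with a median of 0.019.

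Next came 18 genes that attach prenyl groups to proteins, ubiquinone, tRNA or heme, build polyprenyl and dolichol chains, or process the prenylated products. They had a median change of 0.063, beside 0.054 for all tested genes. Of these 18, 15 were higher and 3 lower. With each library centred on its median 9 were higher and 9 lower, with a median of 0.0049. Without control replicate 3 the split was 10 higher and 8 lower, with a median of 0.0036. After quantile normalization it was 8 higher and 10 lower, with a median of -0.0036. By limma 0 of the 18 passed the adjusted threshold, which 0.477% of all tested genes passed, and 1 had an unadjusted p under 0.05, as did 10.1% of all tested genes. That gene was DHDDS, a subunit of the enzyme that makes the dolichol chain, with 7.80 ± 0.484 and 9.25 ± 0.0996 FPKM (SD, n = 3 each; limma, adjusted p = 0.380). In 4 of the 18 genes all TAX libraries were above all control libraries, as in 14.6% of all tested genes, and in 0 below.

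**Figure D4:**
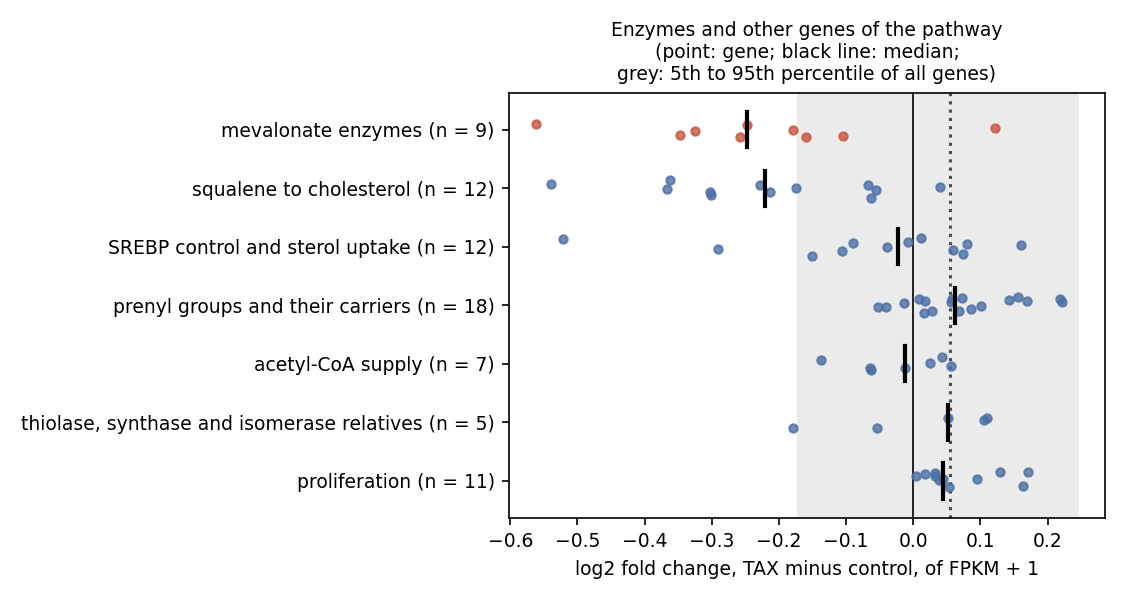
Change of log2(FPKM + 1), TAX minus control (horizontal axis), for the 9 enzymes and for 6 lists of other genes, with 1 point per tested gene, the list's median as a black line and the median of all tested genes as a dotted line. The medians of the 9 enzymes and of the genes from squalene to cholesterol lie at -0.25 and -0.22, and those of the other 5 lists between -0.023 and 0.063.

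Before the route, 7 genes that supply acetyl-CoA had a median change of -0.012, with 4 lower and 3 higher. None of the 7 passed the adjusted threshold or an unadjusted p under 0.05 (limma), beside 0.477% and 10.1% of all tested genes. Centred on the library medians, all 7 were lower, with a median of -0.069, and without control replicate 1, control replicate 2, TAX replicate 1 or TAX replicate 3 only 3 of the 7 were lower. ACSS2, the cytosolic acetyl-CoA synthetase, had 19.2 ± 3.05 and 17.2 ± 0.580 FPKM, and SLC25A1, the citrate carrier, had 41.8 ± 2.06 and 40.0 ± 1.65 FPKM (SD, n = 3 each; limma, adjusted p = 0.685 and 0.795). Among relatives of the thiolase, synthase and isomerase steps, 5 of 7 genes were tested, with 2 lower and 3 higher, or 3 lower and 2 higher after centring. Among these 5, 0 passed the adjusted threshold or an unadjusted p under 0.05 (limma), beside the same 0.477% and 10.1% of all tested genes. ACAT1, the mitochondrial thiolase and the counterpart of ACAT2, had 44.6 ± 2.32 and 48.0 ± 2.23 FPKM, and ACAA2, a thiolase of mitochondrial fatty acid oxidation, had 15.0 ± 1.85 and 13.1 ± 1.01 FPKM (SD, n = 3 each; limma, adjusted p = 0.673 and 0.563).

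Growth genes were followed beside the enzymes, because the study also measured growth under TAX. All 11 genes of the proliferation list had a change above 0, with a median of 0.044 beside 0.054 for all tested genes. With each library centred on its median 4 were higher and 7 lower, with a median of -0.014. Without control replicate 1 the median was 0.11, with 10 higher and 1 lower. Leaving out control replicate 2, control replicate 3 or TAX replicate 2 gave 8 higher and 3 lower each time. Of all tested genes 30.9% had a change below 0. By limma 0 of the 11 passed the adjusted threshold or an unadjusted p under 0.05, beside 0.477% and 10.1% of all tested genes. CCNB1, cyclin B1, had 93.7 ± 1.51 and 105 ± 6.38 FPKM, and PLK1, a mitotic kinase, had 37.8 ± 5.75 and 42.5 ± 3.38 FPKM (SD, n = 3 each; limma, adjusted p = 0.525 and 0.621).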

How the data were processed

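RNA sequencing values of 6 DU145 libraries were used, 3 control and 3 TAX, grouped by the labels. The deposited files give a single number for every gene of a library, read here as FPKM because the decimals do not sum to a fixed total and 3130 identifiers carry the MSTRG prefix of StringTie. TPM taken over a larger gene set than the one deposited would also give unequal totals. The submitters' processing notes name HISAT2 2.2.0, StringTie 2.1.2 and GRCh38, and the annotation and filters are not given in the sources used here. StringTie estimates FPKM from shared reads among overlapping models, and the depth is unknown, so no counting interval is given.

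From these values log2(FPKM + 1) was compared with limma 3.58.1 (R 4.3.3, eBayes with trend), without a covariate, over genes that reached 1 FPKM in 3 or more libraries, with Benjamini-Hochberg adjustment over all of them. The comparison was also run on simulated data with independent errors for each gene. Those data lack the shift of control replicate 3 and the covariation of genes within groups, so they do not test the comparison under either. The members and gene lists were chosen with earlier results of these data known. From each list the genes past an adjusted p of 0.05 were named, at most 4 by smallest p, and where fewer than 2 passed, the 2 next by p. The 5 genes most like the enzymes were named by Pearson's r. Some genes that these rules named are not reported here. MMAB and TBCE and the genes named for overlap or as markers were added after their values were seen. Gene positions came from GENCODE 29 and promoter sequences from RefSeq, and protein sequences were not used here. Alternatives were a pseudocount of 0.1, a filter of 0.1 FPKM or none, quantile normalization, scaling to a fixed sum, centring on the library median, limma without trend, a replicate block and leaving out each library.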

Additional observations from a re-analysis of the deposited data

How the results depend on the processing

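Under the 10 of 14 alternatives that could alter a change of the enzymes, 8 of the 9 stayed below 0 and the median change of the 9 stayed between -0.32 and -0.18. The number of genes called across the transcriptome, 59 here, was 37 with a filter of 0.1 FPKM, 1 without a filter, 95 after quantile normalization, 96 with each library centred on its median and 18 to 43 when a library was left out, lowest without TAX replicate 2 and highest without control replicate 2. Lower filters test more genes, but whether this or another cause lies behind any of these differences was not tested. After quantile normalization 47 of the called genes were higher and 48 lower. With the replicate number as a block (replicate block) 26 genes were called. Same-numbered control and TAX libraries did not deviate together (r = -0.12, -0.33 and -0.17). These are deviations from means of 3 libraries, so they cannot tell whether a number stands for a shared culture or batch. The read depth is unknown, so its limit on the precision of these values cannot be given.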
